A study of Oryza sativa with 36 samples.

Results

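The transcripts described here are those whose signal was constantly higher in the rice line PA64s than in the rice variety 9311. They were chosen on a rice oligonucleotide array as the probe sets, other than controls, whose group mean was at least 2 log2 units (4-fold) higher in PA64s than in 9311 in each of 4 tissue and nutrient states. The states are leaf under sufficient nutrients, leaf under deficient nutrients, root under sufficient nutrients and root under deficient nutrients. A PA64s mean of at least 7 log2 units, an intensity of 128, was also required in each. The rule found 172 of 57194 probe sets (0.301% of all). With the parents exchanged, the same rule found 52 probe sets constantly higher in 9311. Because measured values of PA64s and 9311 chose the members, the parental difference is given as a description, with no test.

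The study took total RNA from leaf and root of PA64s, LYP9 and 9311 seedlings at the early tillering stage. As general background that the sample descriptions do not give, LYP9 is a hybrid rice bred from PA64s, a conditionally male-sterile line used as seed parent, and 9311, the pollen parent. Seedlings of all 3 genotypes grew together in 12 barrels of poor soil, 15 per variety in each. At 14 days of age 6 barrels received 10 g of urea and 10 g of compound fertiliser, which made the sufficient state, and the other barrels were the deficient state. Each genotype, tissue and state has 3 arrays, 36 in all. The labels do not say whether the 3 came from separate barrels or plants, so p-values measure only the spread between these samples.

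In a hybrid, each nuclear gene is present as 1 copy from each parent. A transcript made from the copy of 1 parent only can lie near the middle of the parental amounts in the hybrid, and other levels arise where the copies are regulated differently in the shared nucleus. An oligonucleotide array reads transcripts by hybridisation to short probes designed on a reference sequence, so a variety whose sequence differs under the probes can give a low signal from a transcript that is present. A low 9311 signal from fewer transcripts and one from an allele that the probes match less well cannot be told apart here. Nor can fewer cells of a type and less RNA per cell be told apart in whole leaves and roots.

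Of the 172 probe sets, 75 are tied to exactly 1 gene in the annotation, 68 genes in all, and 97 are not listed there. All 68 genes were found in the reference gene table, 63 as protein coding, and none has a name other than a locus number. A synonym exists for 1 of them, LOC4343404, as SDH3-2, a name used for a subunit of succinate dehydrogenase, the respiratory complex that oxidises succinate. None of the 68 fell in any of 13 lists of gene families such as defence proteins, kinases and transcription factors, which can only find genes that carry a name. By name ending, 18.02% of the members were of the _x_at kind, some of whose probes match several transcripts, against 12.51% of all probe sets. Probe sets with the OsAffx prefix made up 6.395% of the members and 44.59% of all.

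The arrays had medians of 66.94 to 75.38 intensity units in leaf and 65.97 to 74.48 in root, and arrays of 1 group correlated at 0.9735 or more across probe sets. The mean over 8 leaf markers, photosynthesis and chlorophyll synthesis genes, was 11.7 to 12.87 log2 units in the leaf groups, against 5.844 to 6.379 in the root groups. The 9 root markers are genes of nutrient and water transport and of iron chelator synthesis. Their mean was 6.503 to 6.953 in the leaf groups and 9.648 to 11.37 in the root groups. Of the 9 root markers 8 were higher in root, and TIP2-2 overlapped, with 11.4 to 13.15 in leaf and 12.23 to 13.41 in root. The third PA64s root array under deficient nutrients stood apart. In 24 of the 52 probe sets constantly higher in 9311, it lay more than 0.2 of the way from the PA64s mean to the 9311 mean, while 0 to 3 did so in each of the other PA64s arrays. Over those 52 its median was 1.02 log2 units above the other replicates, and over the 172 members it was 0.0023 above. What RNA that array held was not tested. Without it the rule found 169 members, 168 of them among the 172, and the summaries for root under deficient nutrients are also given without it.

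Across the members the smallest of the 4 parental differences had a median of 3.21 log2 units and lay between 2.002 and 7.04. It was 3 or more in 101 probe sets and 4 or more in 48. In all 172 every PA64s array was above every 9311 array in all 4 states, which the choice of members all but fixes and which held for 1.91% of all probe sets. The difference was larger in leaf for 121 members, by more than 1 log2 unit for 42, and larger in root by more than 1 for 9. The median level in leaf was 8.78 in PA64s, 7.94 in LYP9 and 4.83 in 9311. In root it was 8.31 in PA64s, 7.58 in LYP9 and 4.79 in 9311. The 9311 median stood at the 18.48th percentile of all probe sets in leaf and the 19.08th in root, so most members were near the bottom of the array's range in 9311. The 9311 mean was under the level used to filter dim probe sets in both states for 133 members in leaf and 132 in root.

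**Figure D1:**
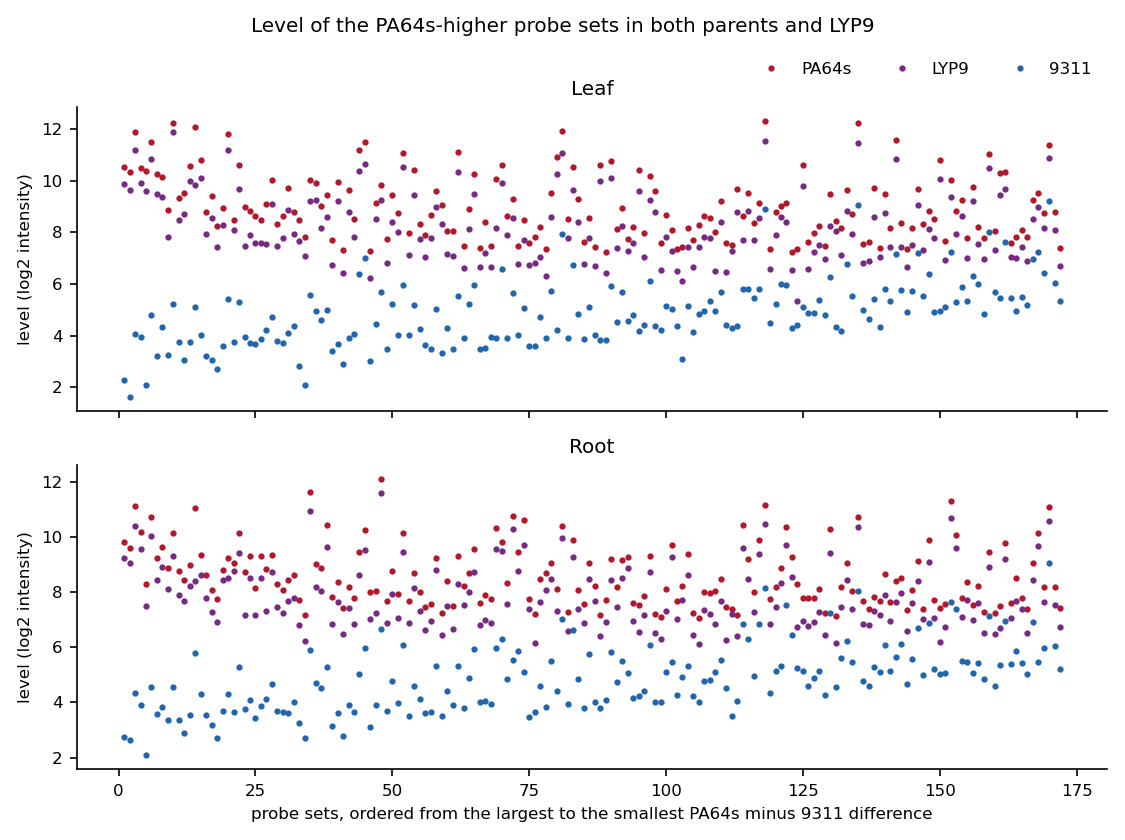
Mean level (log2 intensity, averaged over both nutrient states) of each of the 172 probe sets in leaf and root, ordered from the largest to the smallest PA64s minus 9311 difference, with 1 point each for PA64s, LYP9 and 9311. LYP9 runs close under PA64s along the whole order, and the 9311 points climb toward the right.

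Just inside the limit of 2, the smallest differences were 2.0017 and 2.0034 for probe sets that the annotation does not list and 2.0134 for LOC4348130. Just outside it, they were 1.9711 and 1.9352 for unlisted probe sets and 1.949 for LOC4341544. A further 83 probe sets passed the limit on the difference but not that on the PA64s level.

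The largest differences belonged to LOC4326061, a protein-coding locus with 3 probe sets that are all members. In leaf under sufficient nutrients its _x_at probe set had 10.77, 10.17 and 10.11 log2 units in PA64s, 9.11, 9.80 and 9.68 in LYP9, and 2.06, 1.18 and 2.72 in 9311. In root under deficient nutrients it had 9.72, 9.68 and 9.99 in PA64s, 9.37, 9.63 and 9.45 in LYP9, and 2.52, 2.36 and 3.04 in 9311. Every LYP9 array was close to PA64s, and 9311 was near the floor of the array in both tissues. The parental difference ran from 7.04 to 8.37 for this probe set, from 6.97 to 8.88 for the _at one and from 6.04 to 6.84 for the _s_at one. With 9311 this dim, the sizes rest on values near the floor, and the firmer statement is that PA64s was 4.1 to 4.94, 3.9 to 4.78 and 4.99 to 5.93 log2 units above the level used to filter dim probe sets on the same 3 probe sets. LOC4326058, a locus with a single probe set, had 12.20, 11.88 and 11.85 in PA64s, 11.28, 11.43 and 11.15 in LYP9, and 4.13, 3.84 and 3.96 in 9311 in leaf under sufficient nutrients. Its difference was 6.62 or more in each of the 4 states, with PA64s 5.32 to 6.23 above the filter level and 9311 below it. LOC4343404, the locus with the succinate dehydrogenase synonym, differed by 2.72 to 3.57, with 9.09, 8.88 and 9.71 in PA64s, 8.57, 8.15 and 9.28 in LYP9, and 5.44, 5.63 and 5.89 in 9311 in the same leaves. Its 9311 arrays in root under sufficient nutrients reached 6.91 to 7.33, so a clear signal was read there in 9311 too.

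LYP9 lay between its parents and nearer to PA64s on the log2 scale. Its place can be written as a share of the parental difference, with 9311 at 0 and PA64s at 1. The median place over the 172 members was 0.797 ± 0.026 in leaf under sufficient nutrients and 0.800 ± 0.021 in leaf under deficient nutrients (SD over the 3 LYP9 arrays). In root it was 0.800 ± 0.013 under sufficient and 0.788 ± 0.018 under deficient nutrients (SD, n = 3), and 0.7881 there without the array that stood apart. The 4 medians differed by less than the spread between LYP9 arrays. The LYP9 mean was between the parents in all 4 states for 170 of 172 members, and above the middle in all 4 for 167.

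On the linear intensity scale the same members put LYP9 close to the middle. The median place was 0.525 ± 0.049 in leaf under sufficient nutrients, 0.563 ± 0.014 in leaf under deficient nutrients, 0.558 ± 0.018 in root under sufficient nutrients and 0.545 ± 0.028 in root under deficient nutrients (SD over 3 LYP9 arrays). Without the array that stood apart the last value was 0.5485. Averaged over the 4 states, 131 members lay between 0.4 and 0.6 and 148 above 0.5, in a range of 0.1823 to 0.8644. The step from PA64s down to LYP9 had a median of 0.76 log2 units, with quartiles of 0.68 and 0.84. That step was 0.69 in the 36 members with a mean parental difference of 2 to 3, 0.76 in the 61 members at 3 to 4 and 0.81 in the 75 members above 4. The distance from LYP9 to 9311 was 1.94, 2.73 and 3.89 in the same bands. The probe sets constantly higher in 9311 had their mirror-image place, toward 9311, at 0.8153, 0.8011, 0.8272 and 0.7935 in the 4 states on the log2 scale, and at 0.591, 0.51, 0.5694 and 0.5368 on the linear scale. The last of each was 0.8102 and 0.5479 without the array that stood apart. The closeness of LYP9 to a parent on the log2 scale was therefore seen toward whichever parent was high.

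**Figure D2:**
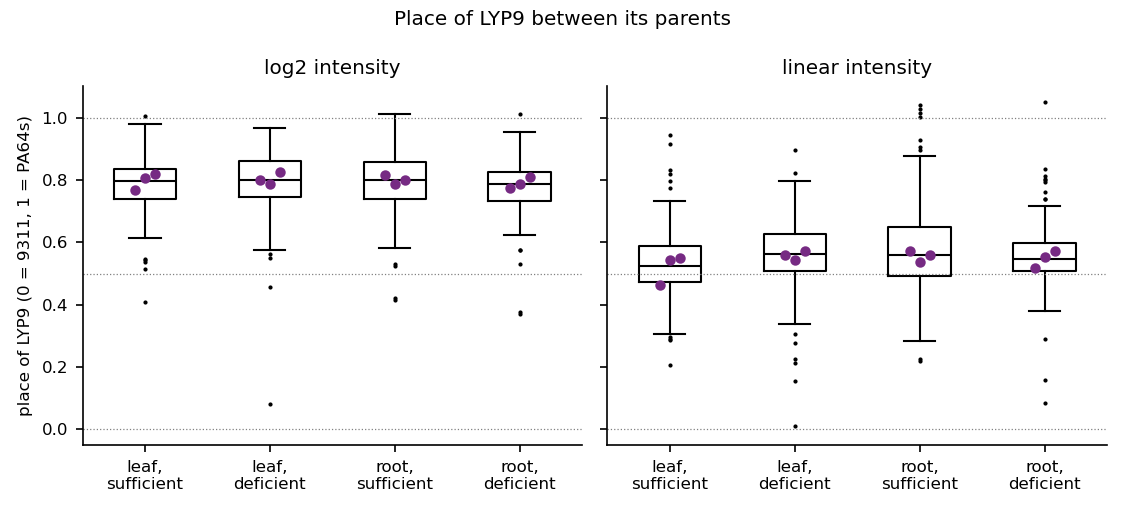
Place of LYP9 between 9311 (0) and PA64s (1) for the 172 members in each tissue and nutrient state, on log2 and linear intensity. Boxes show the quartiles over members with whiskers to 1.5 times the box, black dots lie beyond, and purple points are the medians of the 3 LYP9 arrays; the log2 medians stand near 0.8 and the linear ones between 0.5249 and 0.5628.

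In leaf under sufficient nutrients, every LYP9 array was above all 9311 arrays and below all PA64s arrays in 137 members, against 1.31% of all probe sets. The number was 142 in leaf under deficient nutrients (1.56% of all), 132 in root under sufficient nutrients (1.86%) and 149 in root under deficient nutrients (1.45%), or 155 (1.77%) without the array that stood apart. Every LYP9 array was above all 9311 arrays in 170 members in leaf under sufficient nutrients (5.31% of all probe sets), 171 in leaf under deficient (6.92%), 168 in root under sufficient (6.46%) and 172 in root under deficient nutrients (6.36%). Every LYP9 array was below all PA64s arrays in 139 (4.2% of all), 143 (6.96%), 135 (5.51%) and 149 (4.63%) in the same order, the last being 155 (8.73%) without that array. Leaving out a PA64s array can only keep or raise these counts and those of LYP9 arrays clear of both parents. The choice of members sets the parents apart, so these shares are not independent of the rule. The mean of both parents on the log2 scale was the next comparison, and it is a description, since the values that chose the members also make up that mean. The mean of a pair of log2 values lies below the log2 of their mean wherever they differ, and in all 172 members the linear mid-parent was the higher one, by a median of 0.89 to 1.13 log2 units in the 4 states. The median LYP9 excess over the log2 mid-parent was 1.11 in leaf and 1.03 in root. Over the log2 of the linear mid-parent it was 0.032 and 0.128 in leaf under sufficient and deficient nutrients, and 0.125 and 0.0903 in root under the same states. Counted by limma's test on the probe sets in the upper 60% by level, with Benjamini-Hochberg adjustment over all 34316 tested, 149 of 167 members in leaf were above the log2 mid-parent (1.14% of all tested were) and 0 below (0.0729% of all). In root 149 of 169 were above (0.938% of all) and 0 below (0.00874% of all), or 144 above without the array that stood apart. At an unadjusted p under 0.05 there were 163 in each tissue. Nothing is read from these counts, because a level midway on the linear scale already lies above the log2 mid-parent in every member.

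Few members left this common pattern. Probe sets that the annotation does not list are called by letters from here on. The highest mean places were 0.9371 for probe set D, 0.9338 for LOC4329826 and 0.9204 for the _x_at probe set of LOC4326061. LOC4329826 had 9.10, 8.36 and 7.70 in PA64s, 8.93, 8.88 and 7.17 in LYP9, and 3.38, 3.76 and 3.26 in 9311 in root under sufficient nutrients. Its LYP9 and PA64s arrays overlapped there, and its linear place averaged 0.801. The lowest mean places were 0.4042 for LOC4351029, 0.5451 for LOC4351031 and 0.5839 for probe set A.

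LOC4351029 had unlike LYP9 places under sufficient and deficient nutrients in leaf, a difference that was not tested. Under sufficient nutrients in leaf it had 7.54, 7.72 and 7.61 in PA64s, 6.42, 6.10 and 6.03 in LYP9, and 4.45, 4.90 and 4.20 in 9311. Under deficient nutrients in leaf it had 7.41, 6.96 and 6.92 in PA64s, 4.19, 4.49 and 4.88 in LYP9, and 3.63, 5.27 and 3.99 in 9311. LYP9 stood apart from both parents in the first state and overlapped 9311 in the second. The locus was too dim on average to be tested in leaf. In root its LYP9 arrays had 7.28, 7.27 and 7.73 under sufficient and 6.37, 6.41 and 5.35 under deficient nutrients, a difference of 1.38 ± 0.25 (SE, adjusted p = 0.00679 by limma). That test is of the LYP9 response and not of its place. In 9311 root the locus was also higher under sufficient nutrients, by 1.01 ± 0.25 (adjusted p = 0.0304 by limma). Probe set A kept a wide step below PA64s. It had 12.20, 12.51 and 12.39 in PA64s, 8.96, 10.54 and 10.41 in LYP9, and 4.96, 4.92 and 5.12 in 9311 in leaf under sufficient nutrients, and its linear place of 0.1823 was the lowest of the 172.

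**Figure D3:**
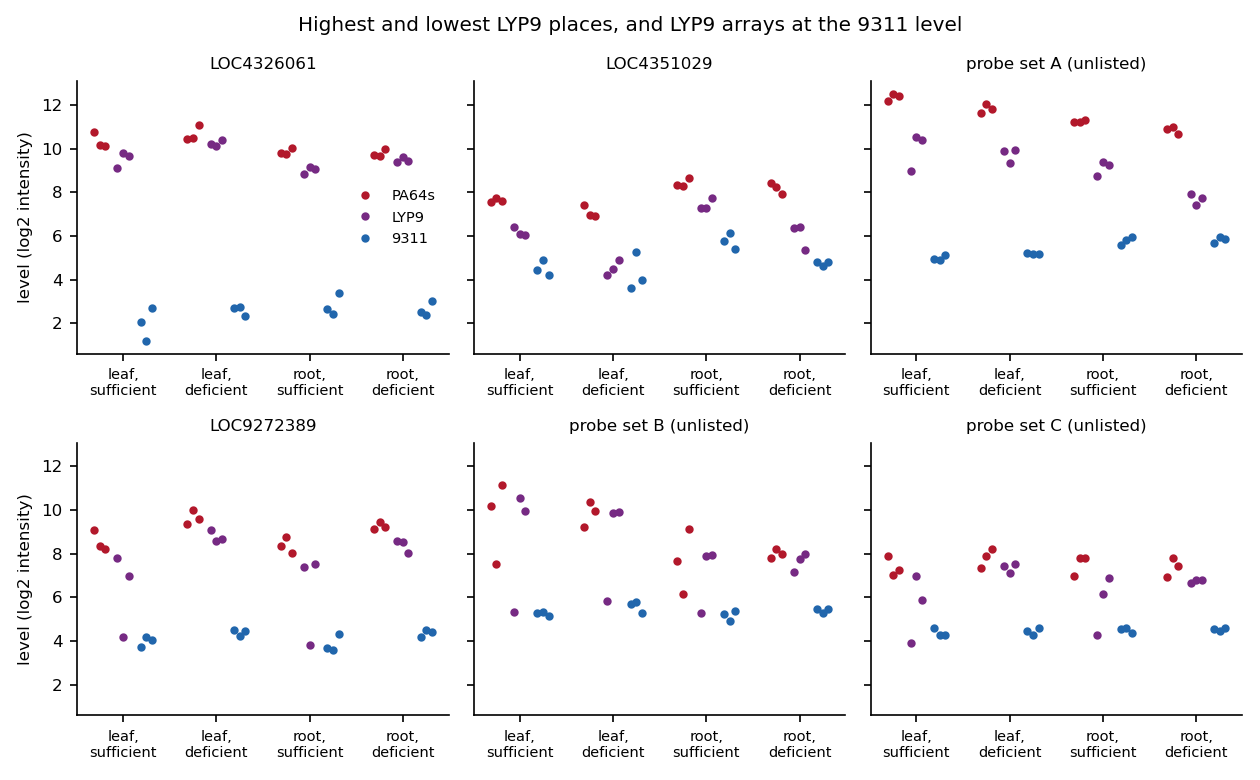
Level (log2 intensity) on each of the 36 arrays for 6 members, with PA64s, LYP9 and 9311 side by side in each tissue and nutrient state. The top row shows LOC4326061, where LYP9 lies next to PA64s, and LOC4351029 and probe set A, where it lies low; the bottom row shows LOC9272389 and probe sets B and C, each with LYP9 arrays at the 9311 level.

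In LOC9272389 and in probe sets B and C a single LYP9 array of a state was at the 9311 level while the other LYP9 replicates were well above 9311. For LOC9272389, both of whose probe sets are members, the _at one had 9.08, 8.36 and 8.22 in PA64s, 7.82, 4.20 and 7.0 in LYP9, and 3.73, 4.21 and 4.06 in 9311 in leaf under sufficient nutrients. In root under sufficient nutrients it had 8.38, 8.79 and 8.02 in PA64s, 7.40, 3.83 and 7.52 in LYP9, and 3.70, 3.59 and 4.34 in 9311. The low LYP9 array was replicate 2 in both tissues, and the second probe set of the gene read 4.36 and 3.50 on the same arrays. Probe set C read 3.93 in leaf and 4.30 in root on LYP9 replicate 1 under sufficient nutrients, where the other LYP9 arrays were at 5.90 or above in leaf and 6.16 or above in root. Probe set B read 5.35 in leaf and 5.30 in root on the same replicate number, and 5.82 on replicate 1 in leaf under deficient nutrients. The members as a whole were not low on those arrays, whose median places were 0.7704 to 0.8166.

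The other probe sets of the same genes often did not share the parental difference. Of the 68 genes, 39 have 1 probe set on the array and 29 have more. In 3 genes all probe sets were members, 7 in number. The remaining 26 genes have 47 further probe sets. PA64s was higher by 1 log2 unit or more in all 4 states in 9 of them (19.15%, against 0.879% of all probe sets), and higher in all 4 but by under 1 in at least 1 state in 19 (40.43%, against 10.5% of all). The other 19 (40.43%, against 88.6% of all) did not have PA64s higher in every state. Of the 47, 17 were under a level of 7 in both parents in every state, among them 8 of these 19. A missing difference on such dim probe sets says little about the gene. All further probe sets had the difference of 1 or more in 3 genes, and at least 1 lacked a constant direction in 13. No test of these shares was made, since the contrast is the one that chose the members.

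**Figure D4:**
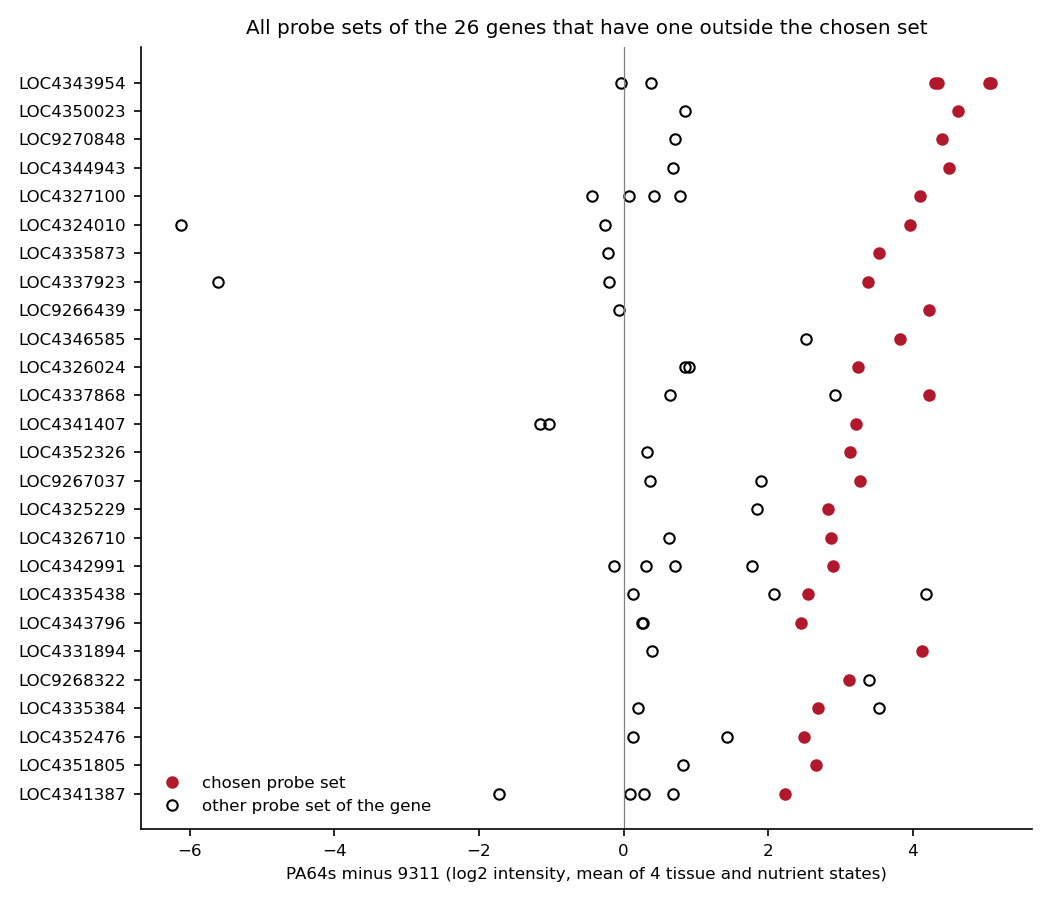
PA64s minus 9311 difference (log2 intensity, mean of the 4 states) for every probe set of the 26 genes that have a probe set outside the chosen ones, 1 row per gene, with chosen probe sets filled and the others open. Most open points lie near 0 while every filled point is above 2, and 1 open point each of LOC4324010 and LOC4337923 lies far to the negative side.

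LOC4343954 had 4 members and 2 other probe sets. On 1 of the members it had 8.45, 8.28 and 8.24 in PA64s, 7.34, 7.49 and 7.16 in LYP9, and 2.54, 2.76 and 3.17 in 9311 in leaf under sufficient nutrients. On a probe set that is no member, the same arrays gave 9.60, 10.31 and 10.88 in PA64s, 9.19, 9.98 and 10.62 in LYP9, and 9.92, 10.29 and 10.47 in 9311. All 3 genotypes overlapped on this second probe set, whose parental difference ran from -0.15 to 0.08 over the 4 states. LOC4350023, LOC9270848 and LOC4344943 had member differences of at least 4.30, 4.20 and 4.18, and 1 other probe set each, with differences of 0.63 to 1.07, 0.53 to 0.88 and 0.49 to 0.92.

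In LOC9268322 the member and the other probe set both had PA64s above 9311 in all 4 states, by 2.13 to 4.50 in the second. LOC4335384 and LOC4335438 each had a further probe set with a difference above 3 (3.24 to 3.68 in LOC4335384 and 4.03 to 4.55 in LOC4335438). These were not members because their PA64s level was under 7 in at least 1 state. Each of these genes also had a probe set with no constant direction, from -0.93 to 0.86 in LOC4335384 and from -0.17 to 0.38 in LOC4335438. That of LOC4335384 was dim, with a highest parental mean of 4.25, under the filter level. That of LOC4335438 was bright, with a highest parental mean of 9.82.

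LOC4324010 and LOC4337923 each had probe sets that ran in opposite directions, and both genes are named for that after their values were seen. In leaf under sufficient nutrients LOC4324010 had 10.34, 10.41 and 10.02 in PA64s, 9.38, 10.18 and 9.17 in LYP9, and 5.73, 6.21 and 6.43 in 9311 on the member. On its second probe set the same arrays had 4.68, 4.24 and 4.21 in PA64s, 10.64, 11.06 and 10.42 in LYP9, and 11.24, 11.41 and 11.30 in 9311. On the third they had 8.48, 8.61 and 8.58 in PA64s, 8.62, 9.03 and 8.62 in LYP9, and 8.91, 8.93 and 8.86 in 9311. The member was high in PA64s, the second probe set was high in 9311, the third was nearly level, and LYP9 was high on all 3. The parental difference was 3.54 to 4.50 on the first, -6.94 to -4.91 on the second and -0.36 to -0.10 on the third. The value of -4.91 is from root under deficient nutrients, where the array that stood apart read 7.17 against 4.46 and 4.60 on the other PA64s arrays, and it was -5.79 without that array.

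LOC4337923 repeated this arrangement. Its member had 8.53, 8.34 and 8.58 in PA64s, 7.80, 7.59 and 7.93 in LYP9, and 4.84, 5.04 and 4.88 in 9311 in leaf under sufficient nutrients. The second probe set had 3.10, 3.37 and 2.24 in PA64s, 7.61, 7.21 and 7.56 in LYP9, and 8.17, 8.15 and 8.19 in 9311. The third had 9.55, 9.19 and 9.37 in PA64s, 9.74, 9.49 and 9.56 in LYP9, and 9.55, 9.62 and 9.47 in 9311, so the genotypes overlapped on it. Over the 4 states the difference on the second probe set was -6.63 to -5.02, and in root under deficient nutrients it was -5.54 with the array that stood apart and -6.42 without it. In LOC4341407 the opposition was milder. Its member had PA64s higher by 2.80 to 3.62, while its other probe sets had PA64s lower by differences of -1.69 to -0.57. LOC4341387 also had a probe set with PA64s lower in all 4 states, with differences of -2.64 to -1.20. That probe set was dim, with a highest parental mean of 5.44, under the filter level.

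**Figure D5:**
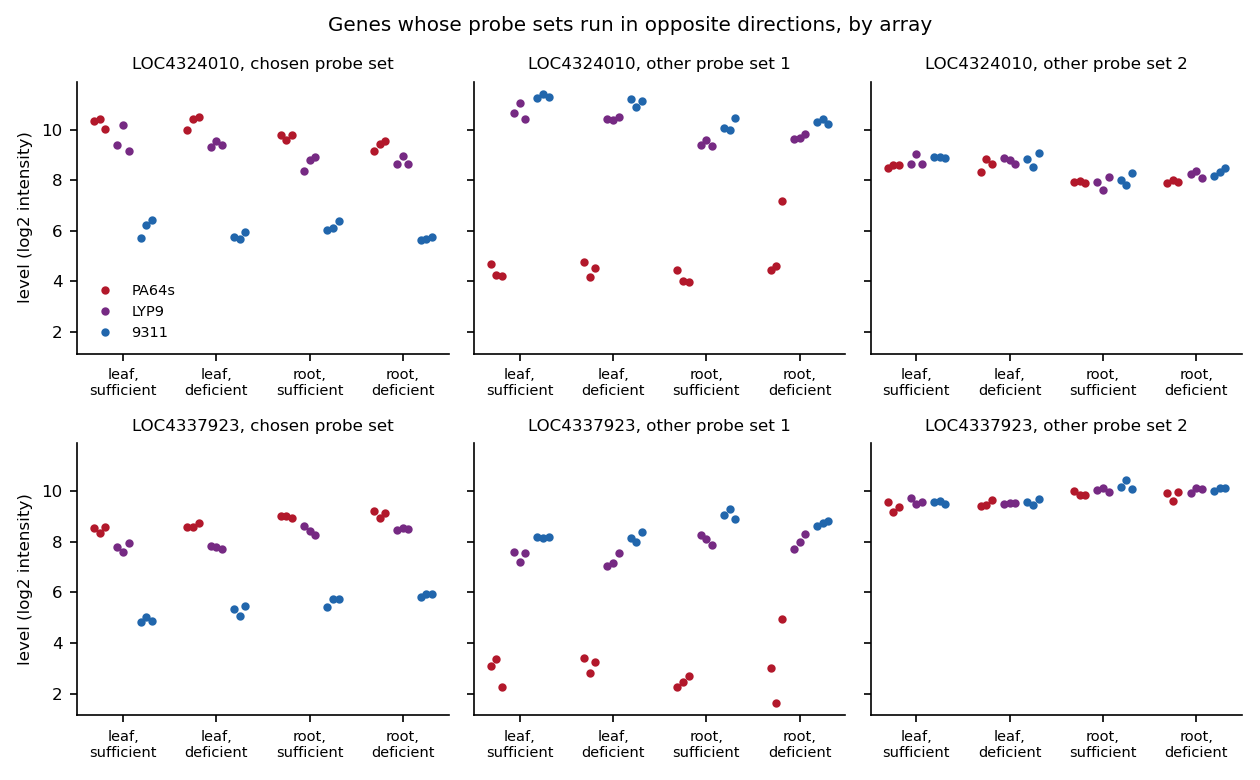
Level (log2 intensity) on each of the 36 arrays for the 3 probe sets of LOC4324010 (top) and of LOC4337923 (bottom), with PA64s, LYP9 and 9311 side by side in each tissue and nutrient state. The chosen probe sets are high in PA64s and low in 9311, the second ones are the reverse, the last ones are nearly level, and LYP9 is high on all; the PA64s point at 7.17 in root under deficient nutrients is the array that stood apart.

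Some members are neighbours in the reference gene order, which was read only for which genes adjoin. Within 5 genes of each other stood 18 of the 68 genes, in 8 clusters. The same count was not made for other genes of the array, so nothing is read from this number. The largest held LOC4328397, LOC4328399, LOC9266559 and LOC4328400, 4 of 5 consecutive genes. The fifth, LOC4328398, had PA64s higher by 1.71 to 3.99 and missed the limit in leaf under deficient nutrients. LOC4328397 had 9.37, 9.31 and 9.98 in PA64s, 8.48, 8.72 and 9.20 in LYP9, and 3.57, 3.60 and 3.57 in 9311 in leaf under sufficient nutrients. All 5 loci thus had PA64s above 9311 in every state, with the largest difference, 4.73 to 5.97, at LOC4328397. LOC4351029 and LOC4351031, which had the lowest LYP9 places among listed genes, also form a cluster, and LOC4351030 between them had PA64s higher by 1.79 to 2.55. The cluster of LOC9267037 and LOC4352182 spans LOC9269225, where PA64s was lower, with differences of -1.09 to -0.62. Between LOC4333636 and LOC4333647, LOC4333637 differed by only 0.11 to 0.30. Between LOC4352472 and LOC4352476, LOC4352473 differed by 0.98 to 1.33, LOC4352474 by -0.45 to 1.44 and LOC4352475 by 0.16 to 1.90.

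The nutrient response was tested as sufficient minus deficient within each genotype with limma over all probe sets kept. In leaf of PA64s, 12 of 167 members were higher under sufficient nutrients (5.01% of all tested were) and 3 were lower (2.72% of all). In leaf of LYP9, 12 were higher (6.2% of all) and 10 lower (2.65% of all). In leaf of 9311, 3 were higher (7.96% of all) and 9 lower (3.97% of all), and 6 of these 12 had 9311 means under the filter level in both states. Most members passed the filter through PA64s and LYP9, so a 9311 response was often read from dim signal. The members' median response was -0.01 in PA64s, -0.03 in LYP9 and -0.12 in 9311, against 0.07, 0.07 and 0.06 over all tested. The split in leaf moved with the scaling. It became 10 higher and 7 lower in PA64s and 10 higher and 21 lower in LYP9 after quantile normalisation, and 9 higher and 7 lower in PA64s and 11 higher and 16 lower in LYP9 after median centring. The count for PA64s leaf, 15 in all, was 7 without sufficient replicate 3 and 24 with all 36 arrays in 1 fit. That for LYP9 leaf, 22 in all, was 14 when sufficient replicate 1 was left out, 11 when deficient replicate 3 was and 9 when deficient replicate 1 was.

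In root of PA64s, 9 of 169 members were higher under sufficient nutrients (1.74% of all) and 1 was lower (1.59% of all), and 8 were called without the array that stood apart. In root of LYP9, 13 were higher (2.1% of all) and 0 lower (1.36% of all), with 43 members (25.4%, against 16.4% of all) at an unadjusted p under 0.05 in either direction. In root of 9311, 5 were higher (3.25% of all) and 4 lower (2.64% of all), or 2 higher and 5 lower after median centring and 5 calls in all with no filter. Of the 9 calls, 3 were on 9311 means under the filter level in both states. These counts rested on single libraries. In PA64s root, leaving out sufficient replicate 2 or deficient replicate 2 left 2 calls, leaving out sufficient replicate 3 left 4, and leaving out deficient replicate 1 left 6. In LYP9 root, leaving out deficient replicate 1 left 6. In 9311 root, leaving out sufficient replicate 2 left 1 call, leaving out deficient replicate 1 or 2 left 2, and leaving out deficient replicate 3 left 5. Of the 166 members tested in both tissues, 50 were called in at least 1 of the 6 tests (30.1%, against 21.8% of all probe sets tested in both) and 116 in none.

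LOC4328397 rose with nutrients in leaf of PA64s and LYP9. Its PA64s leaf arrays had 9.37, 9.31 and 9.98 under sufficient and 8.46, 8.13 and 8.39 under deficient nutrients, a difference of 1.23 ± 0.19 (SE, adjusted p = 0.00127). LYP9 leaf had 8.48, 8.72 and 9.20 under sufficient and 7.68, 7.76 and 7.80 under deficient nutrients, a difference of 1.05 ± 0.19 (adjusted p = 0.00298). The states did not overlap in either genotype. In 9311, where its signal was near 3.6 in both states, the difference was -0.02 ± 0.19 (adjusted p = 0.966). Its neighbour LOC4328399 was also called higher in leaf, by 0.79 ± 0.20 in PA64s (adjusted p = 0.0228) and 0.90 ± 0.20 in LYP9 (adjusted p = 0.0105), with -0.13 ± 0.20 in 9311 (adjusted p = 0.706). The PA64s call was lost under 4 of 12 alternatives. LOC4326710 was called higher in PA64s and LYP9 in both tissues, by 0.73 ± 0.14 and 0.74 ± 0.14 in leaf (adjusted p = 0.00447 and 0.00379) and by 0.53 ± 0.13 and 0.54 ± 0.13 in root (adjusted p = 0.036 and 0.0318). Its PA64s root call was lost under 8 of 12 alternatives, with an adjusted p of 0.0959 without the array that stood apart. On its other probe set the states overlapped in PA64s leaf, with 5.95, 6.42 and 6.04 under sufficient and 6.06, 6.1 and 6.53 under deficient nutrients. They also overlapped there in root of PA64s and LYP9. In LYP9 leaf that probe set was higher, with 5.92, 6.24 and 6.0 against 5.77, 5.76 and 5.83.

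In the other direction, LOC9272389 was lower under sufficient nutrients in LYP9 leaf on both probe sets, by -2.44 ± 0.59 (adjusted p = 0.0183) and -2.29 ± 0.55 (adjusted p = 0.0182). That difference holds the LYP9 array at the 9311 level described above, and without it the values were -1.37 (adjusted p = 0.00986) and -1.31 (adjusted p = 0.0144). Leaving out LYP9 leaf deficient replicate 1 or 3 ended both calls, with adjusted p from 0.0512 to 0.0741. LOC4326061 was lower by -0.80 ± 0.24 in LYP9 leaf on its _at probe set (adjusted p = 0.0477), a call lost under 7 of 12 alternatives. In 9311, LOC4326024 was lower by -1.12 ± 0.22 in leaf (adjusted p = 0.00445) and LOC4340363 by -1.17 ± 0.19 in root (adjusted p = 0.00364). LOC4326024 had 4.18, 4.44 and 4.24 under sufficient and 5.38, 4.99 and 5.86 under deficient nutrients in 9311 leaf, means under the filter level in both states. Its other probe sets differed from each other there. The first was also lower under sufficient nutrients, with 5.15, 5.22 and 5.28 against 5.56, 5.5 and 5.55 under deficient nutrients. That step was smaller than on the member, and these values were under the filter level too. The second had 6.74, 6.88 and 6.6 against 6.56, 6.49 and 6.69, which overlapped. The members of both loci thus had their higher 9311 mean under deficient nutrients in that tissue. Neither was called in the direct test of the parents' response difference given below.

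The remaining listed genes that the naming rule picked had smaller or less stable responses. LOC4345572 was higher by 0.91 ± 0.22 in PA64s leaf (adjusted p = 0.0204), LOC9266559 by 0.76 ± 0.17 in LYP9 root (adjusted p = 0.0237) and LOC4346585 by 1.42 ± 0.33 in PA64s root (adjusted p = 0.0268), where it was 1.71 with an adjusted p of 0.0204 without the array that stood apart. LOC4352102 was higher in root by 0.61 ± 0.12 in PA64s (adjusted p = 0.0114, or 0.0205 without that array) and 0.64 ± 0.12 in LYP9 (adjusted p = 0.0103). In 9311, LOC4351029 was higher in root by 1.01 ± 0.25 (adjusted p = 0.0304) and LOC4352472 by 0.45 ± 0.13 on its _x_at probe set (adjusted p = 0.0481) but 0.04 ± 0.16 on its other member (adjusted p = 0.907). Also in 9311, LOC4335608 and LOC4351805 were lower in root by -0.52 ± 0.14 (adjusted p = 0.0419) and -0.51 ± 0.12 (adjusted p = 0.0208), with LOC4335608 under the filter level in both states. The states overlapped on the other probe set of LOC4351805, with 8.53, 9.2 and 8.95 under sufficient and 8.61, 8.84 and 8.68 under deficient nutrients. The other probe set of LOC4346585 went with its member in PA64s root, with 7.87, 8.13 and 8.27 under sufficient and 6.26, 6.72 and 7.26 under deficient nutrients. LOC4346431 and LOC4326376 were lower in 9311 leaf by -0.93 ± 0.21 (adjusted p = 0.0095) and -0.82 ± 0.21 (adjusted p = 0.0189). Of the calls in this paragraph, only that of LOC4346431 held under all 12 alternatives, and that of LOC4352472 was lost under 11.

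Higher calls shared between PA64s and LYP9 numbered 8 in leaf (66.67% of each list). In root they numbered 6 (66.67% of the PA64s list and 46.15% of the LYP9 list). Over all probe sets tested, the shared higher calls were 61.3% of the PA64s list and 49.6% of the LYP9 list in leaf, and 57.3% and 47.5% of the same lists in root. Lower calls shared were 1 in leaf (33.33% of the PA64s list and 10% of the LYP9 list) and 0 in root. The lower shares were not counted over all probe sets. The 2 responses share no arrays but share 1 estimate of the spread per probe set, so the lists are not independent. The unlisted probe sets E and F, from 1 cluster by name, were called higher in all 3 genotypes in both tissues. They are named after their values were seen. On probe set E, PA64s leaf had 12.45, 12.60 and 12.29 under sufficient and 11.47, 11.33 and 11.33 under deficient nutrients. LYP9 leaf had 12.08, 11.66 and 11.86 under sufficient and 10.02, 10.45 and 10.42 under deficient nutrients, and 9311 leaf had 8.23, 8.61 and 8.52 against 7.15, 7.45 and 7.66. The states did not overlap in any genotype, and the differences were 1.07 ± 0.16 in PA64s (adjusted p = 0.00119), 1.57 ± 0.16 in LYP9 (adjusted p = 4.82e-05) and 1.03 ± 0.16 in 9311 (adjusted p = 0.000886). In root the differences were 1.95 ± 0.44 in PA64s (adjusted p = 0.0229, or 2.12 ± 0.50 and 0.0421 without the array that stood apart), 2.76 ± 0.44 in LYP9 (adjusted p = 0.00283) and 1.80 ± 0.44 in 9311 (adjusted p = 0.0289). Probe set F in 9311 root was close to the limit, at 1.42 ± 0.40 (adjusted p = 0.0496 by limma). With 1 call left in 9311 root without sufficient replicate 2, E and F were not both called there.

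The responses of PA64s and 9311 were compared directly as the difference between them. No member was called in leaf (0.00291% of all tested were higher and 0.0146% lower) or in root (0.00583% higher and 0.00291% lower) by limma. At an unadjusted p under 0.05 there were 31 members in leaf (18.6%, against 3.41% of all tested) and 32 in root (18.9%, against 11.8% of all). In 19 of the 31 and 25 of the 32, 9311 was under the filter level in both states. Closest was probe set G in leaf, with 8.0, 7.92 and 7.98 under sufficient and 8.66, 8.78 and 9.09 under deficient nutrients in PA64s, against 3.77 to 4.02 under sufficient and 3.05 to 3.29 under deficient nutrients in 9311 (difference of responses -1.58 ± 0.25, adjusted p = 0.0539). Its 9311 side lay under the filter level in both states. It passed under 3 alternatives, with adjusted p = 0.0211 after quantile normalisation, 0.0389 with a trended and robust spread and 0.00639 with all 36 arrays in 1 fit. Calls in 1 genotype and not in another, as in the paragraphs above, are therefore not shown to differ between the parents.

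Tissue differences were tested in LYP9, whose arrays the rule did not use. Of 169 members tested, 89 were higher in leaf (37.8% of all tested were) and 35 were higher in root (31.5% of all), a share of 52.7% and 20.7% of the members. The members' median was 0.37 log2 units toward leaf, against 0.07 over all tested. LOC4331894 had the largest difference, with 10.33, 10.48 and 10.07 in leaf under sufficient nutrients against 6.00, 5.95 and 5.85 in root under sufficient nutrients, and a mean difference of 3.85 ± 0.12 (SE, 14.46-fold, adjusted p = 3.26e-22 by limma). LOC4337868 was higher in leaf by 2.39 ± 0.10 (adjusted p = 1.69e-18) and LOC9266439 by 2.28 ± 0.29 (adjusted p = 4.63e-08). For LOC4331894 the parental difference was 5.64 to 6.10 in leaf and 2.29 to 2.47 in root on this member. The other probe set of that gene was dim, with a highest parental mean of 5.11 and a parental difference of -0.05 to 1.07. In LYP9 under sufficient nutrients it had 4.42, 4.32 and 4.5 in leaf against 3.96, 3.8 and 3.92 in root. LOC4341407 was lower in leaf by -1.90 ± 0.14 (adjusted p = 8.2e-13), LOC9268322 by -1.66 ± 0.19 (adjusted p = 7.38e-09) and LOC4346585 by -1.59 ± 0.30 (adjusted p = 2.44e-05).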

How the data were processed

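RNA from leaf and root was measured on a rice oligonucleotide array, 36 arrays in 12 groups of 3. The authors deposited linear intensity values in 1 table, none below 1. Their scaling was not given in the sources used here. Per the submitters' processing notes the tools RMA and affy were involved, with neither role nor version. Analysis used the log2 of each deposited intensity, without rescaling between arrays. Precision is limited by having 3 arrays in each group. Control probe sets (187 of 57381) were left out. Genes come from the platform annotation, matched by gene ID to a reference gene table; 22436 of 57194 probe sets carry 1 symbol, 95 several and 34663 are not listed. No position is printed, since no build for the probes was named in the material used.

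In R 4.3.3 with limma 3.58.1, a mean per group was fitted to the 18 arrays of each tissue over the upper 60% of probe sets by mean level (34316), above 5.753 in leaf and 5.703 in root, and tested 2-sided with eBayes. LYP9 leaf against root was tested in 1 fit of 36 arrays. A call is a Benjamini-Hochberg adjusted p under 0.05 over all probe sets tested. The fit was tested on simulated data. Members, lists and tests were chosen with earlier results of these data known. Named genes are those with a name or synonym, the 10 members with the largest differences among genes with several probe sets, the 3 on each side of the limit, the 3 highest and lowest LYP9 places, and the 3 largest called changes in each direction among listed genes in each test but that of the mid-parent, which is given as a description. LOC4324010, LOC4337923, LOC4341407, LOC4341387, the agreeing genes, the gene neighbours and probe sets B, C, E, F and G were chosen after their values were seen. Letters stand for probe sets with no listed gene. Alternatives were quantile normalisation, median centring, no filter, a trended and robust spread, a replicate block, all 36 arrays in 1 fit, other limits and each array left out.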

Additional observations from a re-analysis of the deposited data

How the results depend on the processing

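With each array left out in turn, the member count ran from 166 to 174, the median LYP9 place from 0.7777 to 0.8085 in leaf under sufficient nutrients, 0.7814 to 0.8216 in leaf under deficient nutrients, 0.7884 to 0.8191 in root under sufficient nutrients and 0.7788 to 0.7949 in root under deficient nutrients, and the members called against the mid-parent from 143 to 150 in leaf and 135 to 150 in root. Nutrient calls ran from 7 to 15 in PA64s leaf, 9 to 27 in LYP9 leaf, 9 to 13 in 9311 leaf, 2 to 10 in PA64s root, 6 to 17 in LYP9 root and 1 to 10 in 9311 root. The parents' response difference stayed at 0 to 0 in both tissues, and LYP9 leaf against root ran from 118 to 127. A limit of 3 on the parental difference kept 101 members. On the linear scale the LYP9 places were 0.5249, 0.5628, 0.5581 and 0.5453, a change made by the scale itself. All 36 arrays in 1 fit gave 24 calls in PA64s leaf. The parents' response difference in leaf had 1 call under quantile normalisation, 1 with a trended and robust spread and 1 with all 36 arrays. No filter left 5 calls in 9311 root, where more probe sets were tested. The cause of the other shifts was not tested. Replicate numbers mark no shared plants or barrels in the labels, and not every same-numbered pair of deviations correlated above 0.1, so the numbers were not used as pairs. Above 0.1 were 21 of 27 pairs in leaf (-0.212 to 0.616) and 12 of 27 in root (-0.218 to 0.528), among them all 9 pairs between genotypes in leaf under sufficient nutrients (0.176 to 0.616), but 6 of 9 between the states of a genotype in leaf and 3 of 9 in root. Of 18 arrays in each tissue, 13 in leaf and 10 in root correlated best with their own number. With the replicate block the calls were 152 and 146 against the mid-parent in leaf and root, 19, 28 and 16 for nutrients in PA64s, LYP9 and 9311 leaf, 11, 15 and 8 in root, 0 and 0 for the parents' difference and 124 for LYP9 leaf against root. No call of a named listed gene turned its direction when an array was left out, and the direction of the other members was not compared. The balance of higher and lower nutrient calls turned in LYP9 leaf, from quantile normalisation (10 higher, 21 lower) and median centring (11 and 16). It also turned in 9311 root from median centring (2 and 5). The level limit, the dim signal of 9311 and 3 arrays per group limit these values.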

Other observations

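By their names the 172 members came from 156 clusters of the array's design, so some may share a target. LOC4351031, next to the locus with the lowest place, had 8.22, 7.81 and 7.80 in PA64s, 6.05, 6.04 and 6.47 in LYP9, and 4.83, 4.47 and 4.82 in 9311 in leaf under deficient nutrients. All 3 genotypes stood apart there, with LYP9 at a linear place that averaged 0.323 over the 4 states.

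Probe set B, with LYP9 arrays at the 9311 level, also varied within PA64s. Its PA64s arrays had 10.19, 7.51 and 11.16 in leaf and 7.68, 6.16 and 9.13 in root under sufficient nutrients. Replicate 2 was the lowest in both tissues. Whether arrays of 1 number in leaf and root share plants is not stated in the labels.

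LOC4337868 had a pair of further probe sets beside its member. In leaf under sufficient nutrients the first had 9.34, 9.31 and 9.17 in PA64s, 8.10, 8.66 and 8.25 in LYP9, and 6.09, 6.17 and 6.16 in 9311. The second had 9.16, 9.18 and 9.05 in PA64s, 8.4, 8.89 and 8.70 in LYP9, and 8.31, 8.31 and 8.30 in 9311 on the same arrays. The first kept the genotypes far apart, and on the second all 3 LYP9 arrays lay between the parental arrays there.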
